A study of Mus musculus with 12 samples.

Results

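The 9 genes described here are Crispld2, Gpr37, Zfp422, Atmin, Slc18b1, Dhrs7b, Cdk2ap2, Ubqln1 and Adora1. They were picked from the 34102 genes of the count table because each was strongly lower in every pair of a labelled Srsf10 knockdown and a control library of cultured mouse neural progenitor cells (NPC). Bulk RNA-seq of total RNA covered 12 libraries in 4 groups of 3. The knockdown NPC were primary cultured cells of C57BL/6 cortex infected with a lentivirus against SRSF10 at a multiplicity of infection of 30, and RNA was taken 72 h after infection. The control NPC were wild type by their labels. The same multiplicity of infection and time after infection are recorded for them, but what virus they received is not stated in the labels. The cortex libraries came from C57BL/6 mice in which both groups carried Srsf10 flox/flox. The conditional knockouts (cKO) also carried Nestin-Cre, and the cortex controls had no Cre. The Nestin promoter drives the recombinase in neural progenitors and so also in the cells they give rise to. With no group that carried Cre alone, an effect of Cre and an effect of the deletion cannot be told apart. The sources give no age for the mice and do not say that libraries came from separate animals or cultures, so p-values measure the spread between these libraries.

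SR proteins bind RNA and steer splicing, and Srsf10 is an unusual member that acts mainly as a splicing regulator whose activity depends on its phosphorylation. The 9 genes have different roles. Gpr37 and Adora1 are cell surface receptors, Crispld2 is a secreted protein, Slc18b1 and Dhrs7b act in transport and lipid synthesis inside the cell, Zfp422, Atmin and Cdk2ap2 are nuclear proteins, and Ubqln1 serves protein degradation. The 3′ untranslated region (UTR) of a messenger RNA follows the coding sequence and holds many of the sites through which RNA-binding proteins and small RNAs act on stability and translation.

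A feature that the choice of the genes did not use directly is a short sequence in the 3′ UTR. The hexamers ACCGAC and CCGACT overlap as the 7-base sequence ACCGACT. An earlier analysis of these same NPC libraries had singled them out among genes lower in the knockdown, so their presence here is not independent evidence. In the longest annotated 3′ UTR, searched on the sense strand, 8 of the 9 genes held at least 1 of the hexamers, and these 8 genes held 10 sites. The sites of 7 of these genes are shown as windows of 30 bases, 5′ to 3′ on the strand of the gene, because they are the sequence the genes share. Capitals mark the matched hexamer, or the 7 bases where both overlap. Sequences and positions are those of GENCODE release 21 for mouse on mm10, the build named in the submitters' processing notes.

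Crispld2, chr8:120050749-120050778, plus strand, UTR bases 424 to 429 of 2456: acagtccgtcctACCGACagagaaatgggg
Zfp422, chr6:116625171-116625200, minus strand, UTR bases 1134 to 1140 of 2307: ctttgaataccACCGACTatctaaaacaga
Atmin site 1, chr8:116958109-116958138, plus strand, UTR bases 61 to 67 of 2386: aggacagcggcACCGACTggggatgtagtc
Atmin site 2, chr8:116959406-116959435, plus strand, UTR bases 1359 to 1364: catggggcctgcCCGACTgcttcccataat
Slc18b1 site 1, chr10:23826883-23826912, plus strand, UTR bases 235 to 240 of 1308: tgtttctaaaagACCGACcttgcccgtcag
Slc18b1 site 2, chr10:23827330-23827359, plus strand, UTR bases 682 to 687: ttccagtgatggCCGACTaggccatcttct
Dhrs7b, chr11:60857949-60857978, plus strand, UTR bases 37 to 43 of 2272: agcctgatcagACCGACTaccacaccttcc
Ubqln1, chr13:58177123-58177152, minus strand, UTR bases 736 to 741 of 1720: cctttccttgtgCCGACTggaggagcactg
Adora1, chr1:134200130-134200159, minus strand, UTR bases 2804 to 2809 of 3726: gagggcacccttCCGACTcccacctttaac

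The windows share little outside the capitals, and the sites lie at different places in their UTRs, close to the stop codon in Dhrs7b and the first Atmin site. Over all 10 sites, ACCGAC stood alone at 2, CCGACT alone at 5, and both overlapped at 3. Gpr37 held neither hexamer in its 3′ UTR of 1538 bases, in its coding sequence or in its 5′ UTR.

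The 9 genes are protein coding, and their annotated spans on mm10 lie apart from each other. Crispld2 (ENSMUSG00000031825) spans chr8:119992438-120052793 on the plus strand, Gpr37 (ENSMUSG00000039904) spans chr6:25665878-25690729 on the minus strand and Zfp422 (ENSMUSG00000059878) spans chr6:116624016-116628999 on the minus strand. Atmin (ENSMUSG00000047388) spans chr8:116943393-116960445 on the plus strand, Slc18b1 (ENSMUSG00000037455) spans chr10:23796986-23827968 on the plus strand and Dhrs7b (ENSMUSG00000042569) spans chr11:60830631-60860195 on the plus strand. Cdk2ap2 (ENSMUSG00000024856) spans chr19:4097182-4099019 on the plus strand, Ubqln1 (ENSMUSG00000005312) spans chr13:58176156-58215653 on the minus strand and Adora1 (ENSMUSG00000042429) spans chr1:134199223-134235431 on the minus strand.

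Srsf10 itself was measured first, since it checks the labels. It had 239.1, 220.2 and 217.3 CPM (counts scaled to library size by TMM factors within each system) in NPC knockdown replicates 1, 2 and 3, against 248.6, 227.2 and 223.1 CPM in NPC control replicates. In cortex it had 222.7, 187.2 and 223.8 CPM in cKO replicates, against 198.3, 219.7 and 201.7 CPM in controls. The groups overlapped in both systems, with a log2 fold change of -0.05 in NPC (95% interval -0.21 to 0.12, edgeR adjusted p = 0.774) and 0.03 in cortex (95% interval -0.15 to 0.21, adjusted p = 0.917). Lower Srsf10 RNA was thus not seen in the labelled knockdown NPC or in the cKO cortex. A gene-level count does not show whether an exon was removed in cortex, or whether the protein was lost in either system. Every direction below therefore rests on the labels. The scaling factors were computed within each system, so CPM levels in NPC and in cortex are not on a common scale. Statements below that compare levels between the systems are rough. The libraries held 26074094 to 30608918 counts in NPC and 32560159 to 36713205 in cortex. By edgeR's quasi-likelihood test at an adjusted p under 0.05, 270 of 14258 tested genes differed in NPC and 27 of 15781 in cortex. These counts depend on the fit and on single libraries, with 3522 in NPC with the replicate number as a block and 47 without control replicate 3, and in cortex 310 by DESeq2 and 0 without cKO replicate 1 (1096 at an unadjusted p under 0.05). Summed progenitor markers (10 genes, all above 1 CPM in every group) were 11460 to 13240 CPM in knockdown NPC and 11600 to 11920 CPM in control NPC, while summed neuron markers were 41.4 to 49.3 CPM and 48.0 to 52.9 CPM in the same groups. In cortex the neuron markers summed to 8605 to 9059 CPM in cKO and 8947 to 9011 CPM in controls. The progenitor and neuron sums thus go with the labelled cells in both systems. Astrocyte markers were also expressed in NPC, at 1138 to 1365 CPM in knockdown and 940.8 to 1012 CPM in control libraries. These sums lay above those of both cortex groups.

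**Figure D1:**
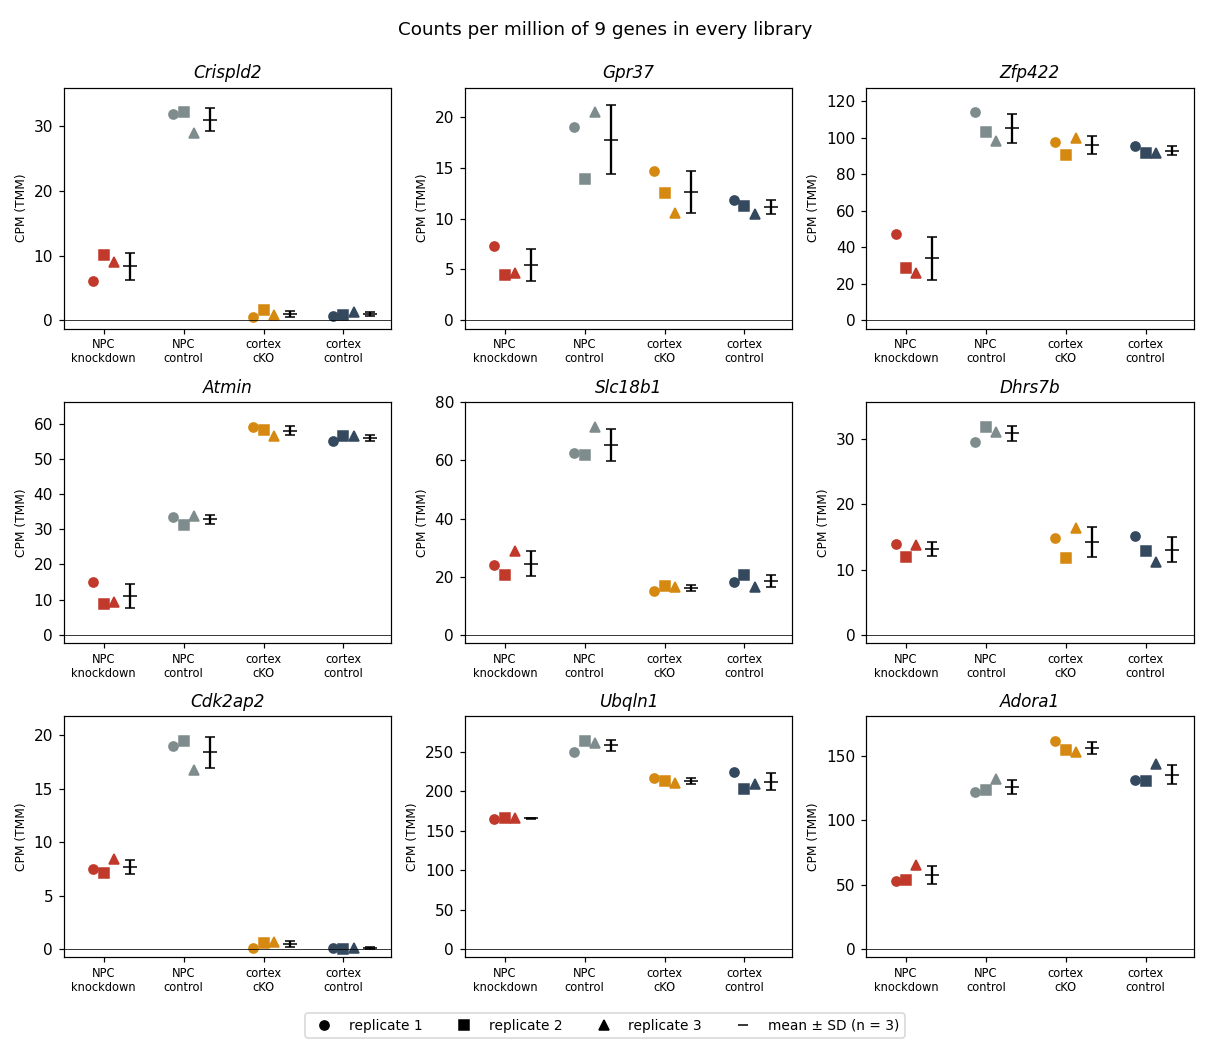
CPM with TMM factors of the 9 genes on the y axis, a panel per gene, in the 12 libraries of the 4 groups on the x axis; symbols are replicates, and the bars give mean ± SD (n = 3). In every panel the knockdown NPC libraries lie below the control NPC libraries, while the cKO and control cortex libraries overlap in all panels but those of Adora1 and Atmin; Crispld2 and Cdk2ap2 are near 0 in cortex.

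The 2 receptors had a lower level in knockdown NPC. Gpr37, a G protein-coupled receptor related to Gpr37l1 and known from oligodendrocytes and, in human cells, as a substrate of the ubiquitin ligase parkin, had 7.28, 4.41 and 4.67 CPM in knockdown replicates, against 19.0, 13.9 and 20.4 CPM in control replicates. All knockdown libraries lay below all control libraries, at 30.6% of the control level, and the log2 fold change was -1.71 (SE 0.23). In cortex it had 14.7, 12.5 and 10.6 CPM in cKO and 11.8, 11.2 and 10.4 CPM in controls. The cortex groups overlapped and lay above all knockdown NPC libraries, and cKO replicate 1 exceeded control NPC replicate 2. Adora1, the adenosine A1 receptor that couples to inhibitory G proteins and dampens synaptic release, had 52.8, 54.0 and 65.6 CPM in knockdown NPC, against 122.5, 123.6 and 132.1 CPM in control NPC. That is 45.6% of the control level, a log2 fold change of -1.13 (SE 0.10), with no overlap. In cortex Adora1 had 161.5, 154.6 and 153.1 CPM in cKO, against 131.6, 131.0 and 143.9 CPM in controls. All cKO libraries lay above all cortex controls, and the cortex controls overlapped the control NPC in level.

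Crispld2, a secreted protein with CAP and LCCL domains known from lung and craniofacial development, had the lowest share of its control level. It had 6.05, 10.0 and 8.97 CPM in knockdown NPC, against 31.9, 32.1 and 29.0 CPM in control NPC, which is 27.0% and a log2 fold change of -1.89 (SE 0.18). In cortex it was near 1 CPM, with 0.580, 1.54 and 0.872 CPM in cKO and 0.669, 0.895 and 1.23 CPM in controls. Slc18b1, a vesicular transporter of polyamines, had 24.0, 20.6 and 28.9 CPM in knockdown NPC, against 62.7, 61.8 and 71.6 CPM in control NPC. It stood at 37.5% of the control level with a log2 fold change of -1.41 (SE 0.13). Its cortex values overlapped, with 15.1, 16.8 and 16.6 CPM in cKO and 18.3, 20.6 and 16.3 CPM in controls. They lay below the NPC libraries, except that cortex control replicate 2 reached the level of knockdown replicate 2. Dhrs7b, the reductase of ether lipid synthesis in peroxisomes and endoplasmic reticulum, had 13.9, 11.9 and 13.8 CPM in knockdown NPC, against 29.6, 31.9 and 31.2 CPM in control NPC. The log2 fold change was -1.23 (SE 0.09), or 42.7% of the control level. Its cortex values, 14.8, 11.8 and 16.3 CPM in cKO and 15.1, 12.9 and 11.2 CPM in controls, overlapped each other and the knockdown NPC.

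Among the nuclear proteins, Zfp422, a zinc finger protein known from tooth development, had 47.3, 28.6 and 26.02 CPM in knockdown NPC, against 113.9, 103.3 and 98.3 CPM in control NPC. It stood at 32.3% of the control level, with a log2 fold change of -1.63 (SE 0.22). Knockdown replicate 1 was well above the other knockdown libraries and still below all control libraries. In cortex it had 97.9, 90.3 and 99.7 CPM in cKO and 95.8, 91.6 and 91.7 CPM in controls, near the level of the control NPC. Atmin, a zinc finger transcription factor that is a cofactor of the kinase Atm and activates the dynein light chain gene Dynll1, was likewise highest in knockdown replicate 1 among the knockdown libraries. It had 15.1, 8.85 and 9.33 CPM in knockdown NPC, against 33.4, 31.2 and 33.8 CPM in control NPC, which is 33.7% and a log2 fold change of -1.57 (SE 0.20). Both cortex groups were above all NPC libraries, with 59.1, 58.3 and 56.54 CPM in cKO and 55.0, 56.4 and 56.48 CPM in controls, which left almost no gap between them. Cdk2ap2, a small protein related to the Cdk2-associated protein Cdk2ap1 and found with the chromatin complex NuRD, had 7.51, 7.16 and 8.38 CPM in knockdown NPC, against 19.0, 19.4 and 16.7 CPM in control NPC. Its level was 41.8% of the control, with a log2 fold change of -1.26 (SE 0.11). In cortex it was hardly detected, with 4, 20 and 26 reads in cKO and 4, 0 and 5 reads in controls. It did not pass the filter on low counts there. Of the listed genes, Bag6 also averaged 0 CPM in both cortex groups, against 322.4 and 314.9 CPM in knockdown and control NPC. Mta1 averaged 0.544 CPM in cKO and 0.489 CPM in cortex controls, against 103.9 and 117.9 CPM in knockdown and control NPC. Whether reads were counted alike in the systems was not tested.

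Ubqln1, a ubiquilin that carries ubiquitinated proteins to the proteasome, differed least. It had 165.1, 166.8 and 165.8 CPM in knockdown NPC, against 250.1, 263.5 and 261.3 CPM in control NPC. That is 64.2% of the control level, a log2 fold change of -0.64 (SE 0.05). The coefficient of variation was 0.513% among the 3 knockdown libraries and 2.77% among the 3 control libraries. Both cortex groups lay between the NPC groups, at 216.7, 212.7 and 210.3 CPM in cKO and 224.1, 203.5 and 209.1 CPM in controls, and they overlapped. In these bulk libraries, fewer cells that express a gene and less RNA per cell cannot be told apart.

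The choice of the genes rests on these NPC values, so no test of them is given. Their log2 fold changes ran from -1.89 to -0.64 with a median of -1.41, beside a median of 0.005 over all tested genes. All 9 had groups that did not overlap, lower in the knockdown, as had 12.8% of all tested genes, while 10.6% of tested genes had groups that did not overlap and were higher. These counts follow from the choice and carry no further information.

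Pair by pair, the log2 ratios of knockdown to same-numbered control show that the genes did not move in step. Crispld2 was lowest in pair 1 (-2.38, -1.67 and -1.68 in pairs 1, 2 and 3). Zfp422 (-1.27, -1.85 and -1.91), Atmin (-1.14, -1.81 and -1.85) and Gpr37 (-1.37, -1.64 and -2.11) were instead least reduced in pair 1. Dhrs7b (-1.09, -1.41 and -1.17) and Ubqln1 (-0.60, -0.66 and -0.66) were also least reduced in pair 1, with Ubqln1 nearly equal in all pairs. Cdk2ap2 (-1.33, -1.43 and -0.99), Slc18b1 (-1.38, -1.58 and -1.30) and Adora1 (-1.21, -1.19 and -1.01) were least reduced in pair 3. Ranked among the 14258 tested genes by the pair with the weakest reduction, Crispld2 stood at rank 3, Gpr37 at 9, Slc18b1 at 14, Zfp422 at 19, Atmin at 29, Dhrs7b at 36, Adora1 at 43, Cdk2ap2 at 45 and Ubqln1 at 195. The 9 genes are thus a selection, since 186 other genes stood at or above the rank of Ubqln1 and 26.6% of tested genes were lower in every pair. Just above Ubqln1 in this order stood the histone acetyltransferase gene Kat2b and Slc37a4, the glucose-6-phosphate transporter, and just below it the Wnt receptor gene Fzd1. Their weakest pairs were all at -0.60, the value of Ubqln1.

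**Figure D2:**
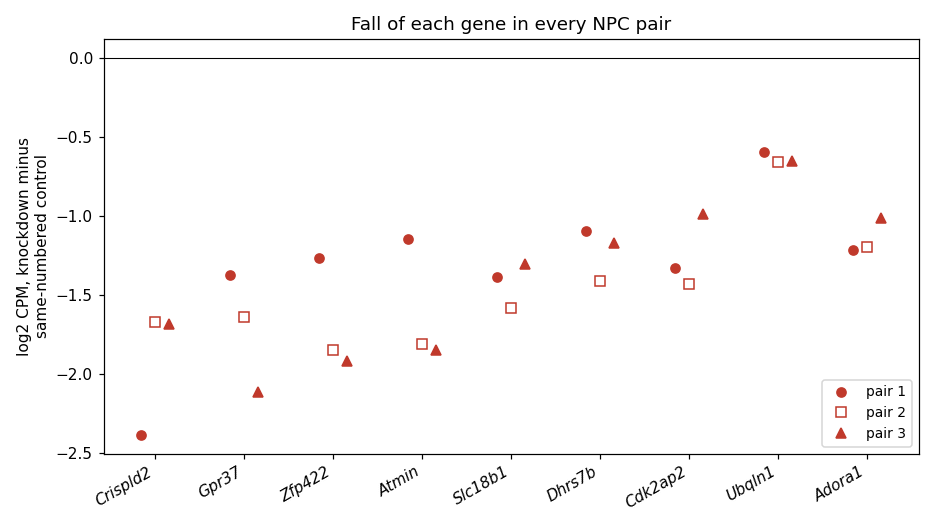
Log2 ratio of knockdown to same-numbered control NPC (y axis, log2 CPM) for each of the 9 genes (x axis); symbols are the 3 pairs. All values are below 0, from -2.38 for Crispld2 in pair 1 to -0.60 for Ubqln1 in pair 1, and the pair with the weakest reduction differs between genes.

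The cortex comparison asks whether the same genes differed in cortex labelled as lacking Srsf10. It played no part in the stated choice, but earlier cortex results were known when the genes were grouped as changed in progenitors alone. Of the 8 genes tested, none was called lower, as were 0.133% of all tested genes, and none higher, as were 0.038%. At an unadjusted p under 0.05 there was 1 of 8, near the 10.9% of all tested genes, and DESeq2 called 0 of 8 and 1.96% of all. Adora1 was the gene with that p (0.00719), with a log2 fold change of 0.21 (95% interval 0.07 to 0.34, adjusted p = 0.241), higher in 3 of 3 cKO libraries. Atmin had a log2 fold change of 0.05 (95% interval -0.12 to 0.22, adjusted p = 0.851), also with groups that did not overlap. Groups that did not overlap and were higher in cKO were found for these 2 of the 8 genes and for 8.52% of all tested genes, and lower ones for 0 of the 8 and for 8.78% of all.

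The intervals describe, for each gene, the difference between these cortex libraries, averaged over all their cells. For Ubqln1 the log2 fold change was 0.01 (95% interval -0.13 to 0.14, adjusted p = 0.980) and for Zfp422 0.05 (95% interval -0.11 to 0.20, adjusted p = 0.853). Gpr37 was at 0.18 (95% interval -0.15 to 0.50, adjusted p = 0.702), Dhrs7b at 0.13 (95% interval -0.22 to 0.48, adjusted p = 0.814) and Slc18b1 at -0.19 (95% interval -0.45 to 0.07, adjusted p = 0.599), the only estimate below 0. Crispld2 was too low in cortex for a narrow interval, at 0.10 (95% interval -0.90 to 1.10, adjusted p = 0.958). Its sign turned when cKO replicate 2 (-0.35) or control replicate 1 was left out. The 8 values had a median of 0.08, beside 0.003 over all tested genes. For Cdk2ap2 without the filter on low counts, the adjusted p was 0.366.

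In a fit of all 12 libraries the change in NPC minus the change in cortex was -1.97 for Crispld2 (95% interval -2.90 to -1.05), -1.87 for Gpr37 (-2.49 to -1.25), -1.21 for Slc18b1 (-1.61 to -0.82), -1.33 for Adora1 (-1.58 to -1.07) and -0.63 for Ubqln1 (-0.80 to -0.46). It was -1.67 for Zfp422, -1.61 for Atmin and -1.34 for Dhrs7b. These differences hold the NPC values that chose the genes and are a description without a test. None is given for Cdk2ap2, with at most 26 reads per cortex library.

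**Figure D3:**
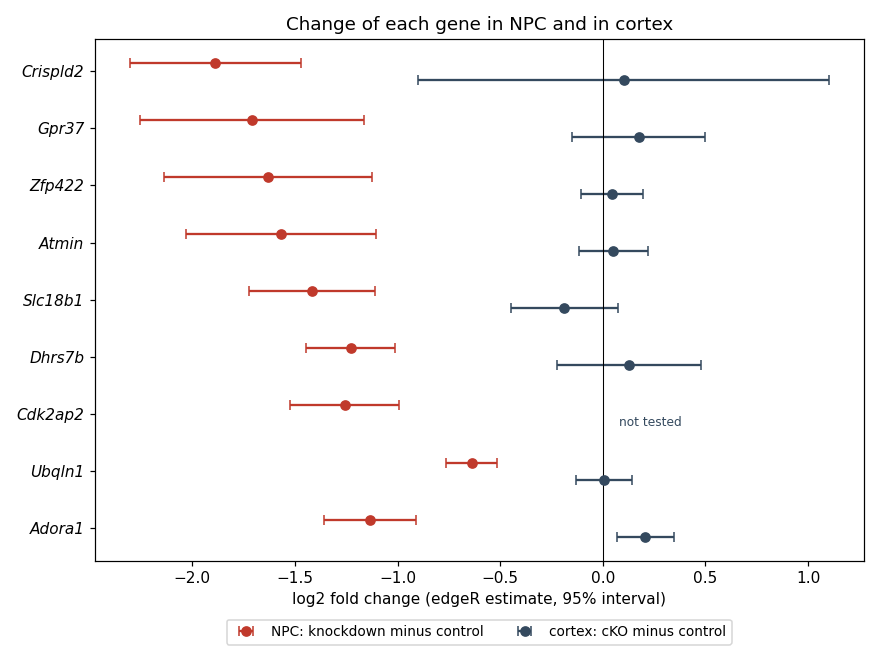
Log2 fold change (x axis, edgeR estimate with its 95% interval) of the 9 genes (y axis) for knockdown minus control in NPC and cKO minus control in cortex. The NPC estimates, which chose the genes, lie between -1.89 and -0.64, the cortex estimates lie between -0.19 and 0.21, the cortex interval of Adora1 alone lies above 0, and Cdk2ap2 was not tested in cortex.

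At least 1 of the hexamers printed above stood in the longest 3′ UTR of 8 of the 9 genes (88.9%), beside 1412 of 12684 other genes tested in NPC (11.1%). Long UTRs have more room for a hexamer, and the median UTR length was 2272 bases for the 9 genes and 1260 bases for the others. Among genes with a UTR within 1.5-fold of the length of a given gene, the share with a hexamer ran from 4.46% for Cdk2ap2 to 19.9% for Adora1. In the coding sequence the hexamers stood in 1 of 9 genes (11.1%), Atmin with 5 sites, beside 3636 of the 12684 (28.7%). The full 7 bases stood in the 3′ UTR of Zfp422, Atmin and Dhrs7b, which is 3 of 9 (33.3%), beside 226 of the others (1.78%).

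Among other genes called lower in NPC, 106 of 208 held a hexamer (51.0%), and among those not called lower it was 1306 of 12476 (10.5%). Among the other searched genes that ranked at or above Ubqln1 by their weakest pair it was 80 of 172 (46.5%). Since the hexamers were chosen on these libraries, these shares describe that choice. The 1412 other genes with a site had a median log2 fold change of -0.10 in NPC, with quartiles at -0.29 and 0.07, and the 11272 without one had a median of 0.01. The medians in cortex were 0.009 with a site and -0.0009 without one. Srsf10 held the 7 bases at 1 site in its coding sequence, shared by all of its searched transcripts. None of its 3′ UTRs held a hexamer. The site follows an exon junction, and the window is shown because Srsf10 is the gene the labels name as targeted. A hexamer stood in the coding sequence of 28.7% of other tested genes, and the share with all 7 bases there was not counted.

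Srsf10, coding sequence, chr4:135863195-135863547 with an intron between, plus strand, first form: cctagaaatagACCGACTggaagaccacgg
Srsf10, coding sequence, chr4:135863198-135863547 with an intron between, plus strand, second form: agaaacagtagACCGACTggaagaccacgg

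The same 7 bases are in capitals in Zfp422, Atmin site 1 and Dhrs7b, while the flanking bases differ. Bases 2 to 7 of a mature microRNA form the core of its seed, which pairs with target sites. None of 1679 mature mouse microRNA names in RefSeq had bases 2 to 7 complementary to either hexamer. Other kinds of pairing were not searched, and an effect of microRNAs was not tested. A match in a sequence is a description and does not show that a factor binds there, and the sequence that the lentivirus carried is not stated in the labels.

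**Figure D4:**
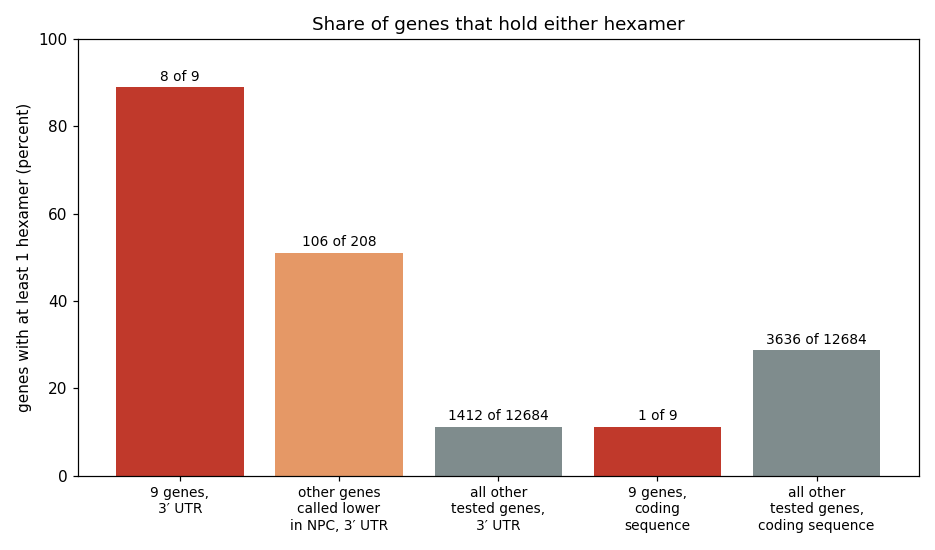
Share of genes (y axis, percent) with at least 1 of the hexamers in the longest 3′ UTR or in the coding sequence; the bars are the 9 genes, other genes called lower in NPC, and all other genes tested in NPC, with counts above each bar. The 3′ UTR share is 88.9% for the 9 genes and 11.1% for all other tested genes, while in the coding sequence it is 11.1% and 28.7%.

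The families and pathways around the 9 genes held 1 called gene without the replicate block, which is given as well since same-numbered NPC libraries deviated together. Of 101 other genes on 10 lists, 76 were tested in NPC. In knockdown NPC 0 of these were called higher, as were 0.351% of all tested genes, and 1 was called lower, as were 1.54%. Their median log2 fold change was 0.03. At an unadjusted p under 0.05 there were 20 of the 76, a larger share than the 18.3% of all tested genes. DESeq2 called 8 of the 76, also a larger share than the 6.72% of all. With the replicate block 13 of the 76 were called higher and 18 lower. These are larger shares than the 11.9% and 12.8% of all tested genes. The lists were chosen with earlier results of these data known. The gene called lower was Slc29a3, a nucleoside transporter of lysosomes, with 12.5, 9.21 and 8.31 CPM in knockdown NPC, against 21.04, 17.9 and 23.0 CPM in control NPC. All knockdown libraries were below all control libraries, with a log2 fold change of -1.05 (SE 0.17, edgeR adjusted p = 0.0334). Its call was lost without knockdown replicate 2 or 3 or without any of the control libraries, with adjusted p-values of 0.0748 to 0.161. In cortex it had 24.7, 24.7 and 23.3 CPM in cKO, against 23.6, 25.6 and 24.2 CPM in controls, and a log2 fold change of -0.02 (adjusted p = 0.971). Its 3′ UTR of 3764 bases held 3 of the hexamer sites.

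On the list of receptors like Gpr37 and their proposed ligand prosaposin, 0 of 2 tested genes were called in NPC. Gpr37l1 had a log2 fold change of 0.74 (adjusted p = 0.306, 0.0377 with the replicate block) and Psap one of 0.02 (adjusted p = 0.956). Of 14 tested adenosine receptors and proteins that make, carry, sense or break down adenosine, Slc29a3 was the only one called. The stimulatory receptor genes Adora2a (-0.46, adjusted p = 0.452, 0.0179 with the block) and Adora2b (0.64, adjusted p = 0.196, 0.0333 with the block) were not called without the block. The other SLC18 transporters, which load monoamines and acetylcholine into vesicles, were too low to be tested in NPC.

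Polyamine synthesis and breakdown had 0 of 13 tested genes called, among them Odc1, the first enzyme of the pathway (0.08, adjusted p = 0.746), and its inhibitor Oaz1 (-0.22, adjusted p = 0.195, 0.00755 with the block). Of the other listed CAP domain proteins only Glipr2 was tested in NPC (0.66, adjusted p = 0.114, 0.00024 with the block). Ether lipid synthesis had 0 of 6 called. Its first enzymes Gnpat (0.29, adjusted p = 0.0692, 0.00094 with the block) and Agps (0.07, adjusted p = 0.625) act just before Dhrs7b in the pathway. The Dhrs family had 0 of 6 called, with Dhrs1 at -0.09 (adjusted p = 0.665) and Dhrs2 at 0.67 (adjusted p = 0.355).

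Of the NuRD genes, Cdk2 and Cdk2ap1, 0 of 16 were called. Cdk2ap1 was at -0.15 (adjusted p = 0.395, 0.0444 with the block) and the cell cycle kinase gene Cdk2 at 0.35 (adjusted p = 0.269, 0.00032 with the block). The ubiquilins and other proteasome shuttle factors had 0 of 10 called, with Ubqln2 at 0.16 (adjusted p = 0.303) and Ubqln4 at 0.01 (adjusted p = 0.960). Around Atmin, 0 of 8 genes were called, with Atm at 0.30 (adjusted p = 0.446, 0.00363 with the block) and Nbn, a sensor of DNA breaks, at -0.06 (adjusted p = 0.682). With the block, the adenosine list had 2 genes higher and 5 lower, the polyamine list 1 and 4, the NuRD list 5 and 5, the Atm list 2 and 1, the Gpr37, CAP domain and ether lipid lists 1 higher each, the ubiquilin list 2 lower and the Dhrs list 1 lower.

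In cortex 81 genes of these lists were tested and 0 were called in either direction by edgeR. There were 15 of 81 at an unadjusted p under 0.05, a larger share than the 10.9% of all tested genes. DESeq2 called 1 of 81, a smaller share than the 1.96% of all. With the replicate block 0 were called, and the median log2 fold change was -0.04. The tested numbers were 2 for the Gpr37 list, 15 for adenosine, 1 for SLC18, 13 for polyamines, 4 for CAP domain proteins, 7 for ether lipids, 6 for Dhrs, 16 for NuRD, 9 for ubiquilins and 8 for Atm. Among the close relatives of the 9 genes, Gpr37l1 was at 0.35 (adjusted p = 0.556), Adora2a at -0.23 (adjusted p = 0.821), Crispld1 at 0.70 (adjusted p = 0.627), Cdk2ap1 at -0.35 (adjusted p = 0.289), Ubqln2 at 0.06 (adjusted p = 0.748) and Ubqln4 at -0.01 (adjusted p = 0.975). Slc18a2, the vesicular monoamine transporter gene, was at -0.96 (adjusted p = 0.375).

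The genes whose pattern over the 12 libraries was most like the mean of the members tested in both systems were Psme3, Fam234b, Wbp1l, Saraf and Arhgdia. Pearson's r over the 12 libraries, with log2 CPM centred within each system, was 0.994 for Psme3, 0.986 for Fam234b, 0.985 for Wbp1l, 0.983 for Saraf and 0.981 for Arhgdia. The libraries fall into groups that differ in level, so r mostly reflects the step between NPC groups. Psme3, which encodes an activator of the proteasome, had log2 fold changes of -1.30 in NPC and -0.02 in cortex. Saraf, which limits calcium entry, had -1.43 and -0.04. Arhgdia had -1.55 and -0.14. Fam234b had -0.87 and 0.01, and Wbp1l had -0.85 and 0.06. All 5 held a hexamer in the 3′ UTR. Over the NPC libraries alone and without centring, Psme3 was the only one of the 5 again among the nearest 5. Each of the members tested in both systems followed the mean of the others with r of 0.813 for Crispld2 to 0.976 for Ubqln1. The choice of the genes by their NPC values largely fixes this likeness.

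Of the 18 tested genes next to the 9 in the genome, 1 was called lower, beside 1.54% of all tested genes. The 18 tested neighbours, the nearest on each side, had a median log2 fold change of 0.08 in NPC, with 8 below 0 and a range from -0.93 for Alox5 to 1.22 for Rassf4. It was Tmem229a, 709.6 kb from Gpr37 (-0.63, adjusted p = 0.00555), and 0 were called higher. Crispld2, Adora1 and Ubqln1 overlap other annotated genes. Of these Mybph, on the opposite strand to Adora1, had 48 reads over all libraries, and the others have no row in the table. Whether reads were counted by strand is not stated in the labels.

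Markers of other cell types were measured beside these values, and their part in them was not tested. Astrocyte markers summed to 1138 to 1365 CPM in knockdown NPC and 940.8 to 1012 CPM in control NPC, without overlap, and 0 of 6 were called (4 higher and 1 lower with the block). Oligodendrocyte lineage markers summed to 91.5 to 204.1 CPM in knockdown NPC and 95.4 to 173.6 CPM in control NPC, with 0 of 7 called (1 higher and 1 lower with the block). Of the progenitor markers 0 of 10 were called in NPC, and with the block 2 were higher and 1 lower, Sox2 at -0.50 (adjusted p = 8.5e-05). Of the neuron markers 0 of 8 were called, and 1 was lower with the block. Choroid plexus markers summed to 20.4 to 52.4 CPM in knockdown and 11.2 to 24.8 CPM in control NPC, vessel and meningeal markers to 6.21 to 14.2 CPM and 6.41 to 12.7 CPM, and microglia and erythroid markers to at most 1.76 CPM and 1.15 CPM, with 0 called of the 3, 5 and 1 tested (1 choroid plexus marker higher with the block). In cortex, choroid plexus markers ran from 24.2 to 1134 CPM in cKO and from 6.08 to 1244 CPM in controls, high in 1 library of each group. Astrocyte markers there summed to 445.5 to 535.9 CPM in cKO and 396.3 to 417.9 CPM in controls, and oligodendrocyte lineage markers to 176 to 188 CPM and 203.2 to 218.5 CPM, with 1 of 6 called lower. Vessel and meningeal markers summed to 358.4 to 473.7 CPM and 222.4 to 467.8 CPM, and microglia and erythroid markers to 65.1 to 70.1 CPM and 53.0 to 91.2 CPM. No other list had a gene called in cortex.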

How the data were processed

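The authors deposited raw counts per gene, 1 column for each of the 12 libraries. Reads were aligned to mm10 with HISAT2, per the submitters' processing notes. The labels do not state what counted the reads. The members and gene lists were chosen with earlier results of these data known. Genes were kept by filterByExpr, scaled by TMM within each system and tested by edgeR 4.0.16 (R 4.3.3, quasi-likelihood test) on the 6 libraries of a system. A Benjamini-Hochberg adjusted p under 0.05 over all tested genes made a call. Differences between systems came from 1 fit of all 12. Same-numbered libraries were taken as pairs in NPC, since their residuals correlated (0.48, 0.50 and 0.44), and not in cortex (0.02, -0.16 and -0.02). Pair ratios and likeness used log2 CPM with a prior count of 2.

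Named genes were the 9 members, Srsf10, called genes and the first 2 other tested members of each family list, the 5 genes most like the members, and the 2 genes ranked next above and next below the lowest member. A gene and a site window among these are not reported here. Alox5, Rassf4, Tmem229a, Mybph, Sox2, Bag6 and Mta1 were named after their values were seen. The hexamers were searched in UTRs of at least 50 bases with Python 3.11.15. Alternatives were size factors by RLE, dropping the count filter, DESeq2 1.42.0, fitting all libraries together, the replicate block, leaving out each library, and leaving out the cortex libraries above 1000 CPM of Ttr. The fits were tested on simulated data. Libraries held 26074094 to 36713205 counts, and replicates of a group differed by more than counting noise. Figures were drawn with matplotlib 3.10.9.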

Additional observations from a re-analysis of the deposited data

Results flagged for a closer look

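Slc29a3, the lysosomal nucleoside transporter on the adenosine list, had a change in NPC that differed from its change in cortex. In the fit of all 12 libraries the change in NPC minus the change in cortex was -1.02 on the log2 scale (SE 0.196, edgeR adjusted p = 0.0233). It averaged 9.99 ± 2.18 CPM in knockdown NPC and 20.7 ± 2.56 CPM in control NPC (SD, n = 3 each). In cortex it averaged 24.2 ± 0.772 CPM in cKO and 24.5 ± 1.05 CPM in controls (SD, n = 3 each). Slc29a3 was looked up here because it was called lower in NPC, so the adjusted p above rests partly on the values that picked it. The cause of the difference was not tested.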

How the results depend on the processing

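Of the cortex values of the 8 tested genes, 90 of 96 kept their direction under the alternatives, and in NPC the choice of the genes fixes it. The cortex values that turned sign were those of Crispld2 (range without 1 library -0.35 to 0.37) and of Ubqln1 (range -0.0238 to 0.0410, and -0.0141 without the libraries high in Ttr). The number of genes called in NPC, 270, was 958 by DESeq2, 654 in the fit of all 12 libraries, 3522 with the replicate block, and 47 to 304 without 1 library. The lowest count came without control replicate 3, and 55, 69, 95 and 176 were called without control replicate 2, knockdown replicate 2, control replicate 1 and knockdown replicate 3. The share called lower was 81.5% without the block, 64.7% in the fit of all 12 libraries, 62.6% by DESeq2 and 51.8% with the block. In cortex 27 genes became 156 without the count filter, 310 by DESeq2, 49 in the fit of all 12 libraries, 1 with the replicate block, and 0 to 28 without 1 library, with 0 called without cKO replicate 1 (1096 at an unadjusted p under 0.05), 1 without cKO replicate 3 and 16 without cKO replicate 2. The cause of these differences was not tested. Slc29a3 kept its direction in 11 of 11 alternatives. The hexamers stood in the coding sequence of 1 of the 9 genes in place of 8 for the 3′ UTR, and over all annotated 3′ UTRs they stood in 8. Of the 5 genes most like the members, 1 was shared with the NPC libraries alone. Low counts limit what can be said of Crispld2 and Cdk2ap2 in cortex.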
